A study of Mus musculus with 16 samples.

Results

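The response of female airway epithelial cultures labelled LMAN1 KO to house dust mite extract (HDM) was measured by RNA sequencing. Its members are 4 of the 16 libraries of the series, chosen by their labels as female and KO: 2 were left naive and 2 were treated overnight with HDM at 20 ug/ml. The cultures were murine tracheal epithelial cells (MTECs), primary cells that are grown from the trachea and differentiate into a layered, ciliated and mucus-producing epithelium. Cultures from WT mice were prepared alongside, in both sexes, and the 4 female WT libraries and the 4 male libraries labelled KO were used here for tests of whether the HDM response differed. All mice of the study were on a C57BL/6J background, and the KO mice were littermates of the WT mice from heterozygous breeding. The labels call the 2 libraries of a group biological replicates without naming the animals behind them. The p-values rest on the spread between libraries of the same group, estimated together over all 16 libraries of the series.

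LMAN1 is a lectin of the early secretory pathway that carries selected glycoproteins from the endoplasmic reticulum to the Golgi together with its partner MCFD2. HDM is a complex mixture of proteases, lipids, chitin and microbial products. Airway epithelium senses it through Toll-like, C-type lectin and protease-activated receptors, and is known for answering with chemokines, alarmins and repair genes. The epithelium itself is made of basal cells, which are its progenitors, secretory (club and goblet) cells, which make mucins, antimicrobial proteins and detoxifying enzymes, ciliated cells and a few rare types.

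Lman1 was examined first because it checks the labels. In CPM (read counts divided by the TMM-scaled library size in units of 1e+06, the level used throughout), Lman1 stood at 12.8 in both naive female libraries labelled KO and at 66.6 and 78.1 in the 2 HDM libraries. The WT libraries of both sexes averaged 120.5 ± 14.3 CPM (SD, n = 8), so the naive libraries were each at 10.6% of that mean and the HDM libraries at 55.3% and 64.8%. Both HDM libraries lay above both naive libraries and below the lowest WT library, which held 101.3 CPM. The difference between HDM and naive was a log2 fold change of 2.50 (SE 0.48, adjusted p = 0.00744; all adjusted p-values here are Benjamini-Hochberg values from the quasi-likelihood test of edgeR), while the same difference was -0.17 in female WT libraries. The call was lost without HDM replicate 2, naive replicate 1 or naive replicate 2 (log2 fold change 2.38 to 2.50, adjusted p up to 0.0829). In the male libraries labelled KO, Lman1 was at 14.2 and 63.4 CPM in the naive and at 65.0 and 66.0 CPM in the HDM libraries. Level of Lman1 and HDM treatment therefore cannot be told apart in the female libraries labelled KO, and the label is used below as a name only. Mcfd2, the partner of LMAN1, was at 65.5 and 58.9 CPM in naive and at 58.0 and 58.1 CPM in HDM libraries (log2 fold change -0.10, adjusted p = 0.542).

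**Figure D1:**
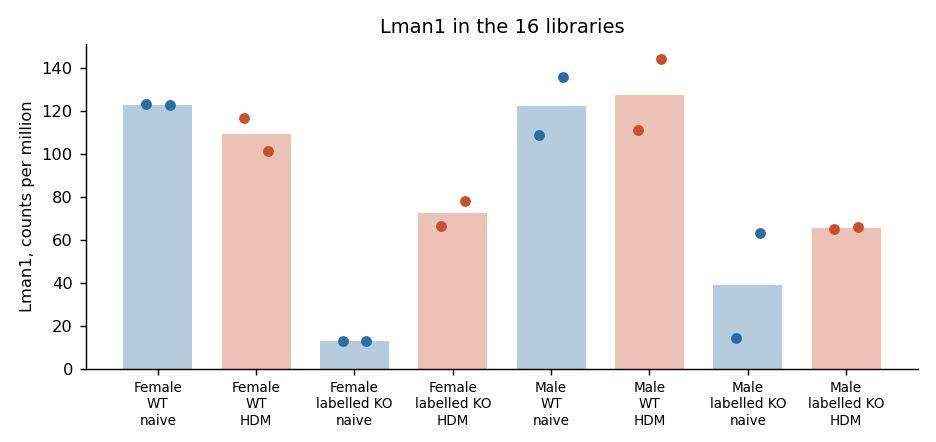
Level of Lman1 in each of the 16 libraries in CPM, by sex, genotype label and treatment; points are libraries (naive in blue, HDM in orange) and bars are the means of 2. The naive female libraries labelled KO overlap at 12.8, the HDM libraries of the same label are at 66.6 and 78.1, and the lowest WT library is at 101.3.

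The 4 libraries held 34268335 and 31806330 counts for naive cultures and 24861559 and 27380220 for HDM cultures, within the range of the series of 21860698 to 43442188. Xist was at 108.6 to 241.7 CPM in the 4 libraries and the Y-linked gene Ddx3y at 0.399 and 0.279 CPM in naive and 0 in both HDM libraries, against 43.6 to 58.8 CPM in male libraries. Ddx3y (14 and 9 counts in naive libraries), Uty (8 and 8) and Eif2s3y (9 and 5) had 0 counts in both HDM libraries. All of them were among the genes called lower with HDM, and the source of these Y-linked counts was not tested. Counts on mitochondrial genes made up 0.517% and 0.535% of the naive and 1.39% and 1.36% of the HDM libraries, and their part in the results below was not tested. The 10 epithelial markers (Cdh1, Epcam, Krt8, Krt18, Krt19, Elf3, Ehf, Grhl2, Sox2 and Nkx2-1) summed to 8860 and 9468 CPM in naive and to 10160 and 9182 CPM in HDM libraries, so the label of airway epithelium was borne by all 4. Single markers moved within that sum: Krt8 and Krt18 were called higher with HDM and Sox2 and Elf3 lower. Sox2 had 8695 and 7258 counts in naive and 3938 and 4288 in HDM libraries. Scgb1a1, the classic product of club cells, was low, at 3.65 and 3.28 CPM in naive and 2.42 and 0.501 CPM in HDM libraries.

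In this comparison 1664 of 15993 tested genes, 10.4%, passed an adjusted p of 0.05. Of these, 741 (4.63% of those tested) were higher and 923 (5.77%) lower with HDM, and 582 changed at least 2-fold in either direction, 223 up and 359 down. DESeq2 called 2110 genes, and 4129 genes had an unadjusted p under 0.05. All 1664 called genes had no overlap between the 2 HDM and the 2 naive libraries, a separation that 29.4% of all tested genes showed with HDM above and 31% with HDM below. The count rested on every library: it was 907 and 373 without HDM replicate 1 or 2, and 383 and 794 without naive replicate 1 or 2, when the lone remaining library was taken to vary like the other groups.

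Among the 12 called genes with the largest falls (protein-coding, mean log2 CPM of at least 2), 6 belonged to the list of secretory cell products (Muc5b, Chil4, Scgb3a1, Agr2, Reg3g and Fcgbp). Sult1d1, a cytosolic sulfotransferase, was at 23.7 and 13.5 CPM in naive and at 0.767 and 1.18 CPM in HDM libraries (log2 fold change -4.24, SE 0.33, adjusted p = 0.000133). Muc5b, one of the 2 main gel-forming mucins of the airway, was at 61.2 and 33.8 CPM in naive and 2.50 and 3.87 CPM in HDM libraries (-3.89, SE 0.54, adjusted p = 0.00159). The protease inhibitor gene A2ml1 went from 131.6 and 68.9 CPM to 6.70 and 6.87 CPM, a log2 change of -3.88. Chil4, a chitinase-like protein, was at 67.1 and 25.7 CPM without and at 5.04 and 1.58 CPM with HDM (-3.83). For both genes the naive libraries differed widely from each other, and the choice of genes required them to lie above both HDM libraries. Dmbt1, a scavenger receptor of mucosal secretions, fell by 3.65 on the log2 scale and Scgb3a1, a secretoglobin, by 3.64. Agr2, a disulfide isomerase needed for mucin folding, was tight in both groups, at 81.7 and 76.8 CPM and at 8.88 and 8.20 CPM (-3.21, SE 0.24, adjusted p = 0.000133). Reg3g, an antibacterial C-type lectin and the most abundant of the 12, went from 3129 and 2235 CPM to 365.5 and 310.3 CPM (-2.99, SE 0.30). The remaining 4 of these 12 genes were Trf (transferrin, -3.48, whose exons overlap Gm20425 on the same strand), Tmc5 (-3.23), Lrrc23 (a radial spoke protein of cilia, -2.87) and Fcgbp (a mucus protein, -2.62).

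The 12 genes with the largest rises by the same rule were of mixed function. Fxyd2, a regulatory subunit of the sodium pump, stood at 1.65 and 1.55 CPM in naive and at 19.0 and 14.4 CPM in HDM libraries (log2 fold change 3.38, SE 0.77, adjusted p = 0.0174). Rgs4, which shortens G protein signalling, was at 4.10 and 8.05 CPM and at 48.1 and 52.9 CPM (3.06, SE 0.45, adjusted p = 0.00229). Gxylt2, a xylosyltransferase that modifies Notch-type EGF repeats, was at 12.9 and 17.0 CPM and at 103.6 and 121.4 CPM (2.91, SE 0.32, adjusted p = 0.000524). In each of these genes the HDM libraries were close to each other and several times above the higher naive one. Rapgef3, a cAMP-activated exchange factor, rose by 3.01, with the reservation that its exons overlap antisense genes and that the strand setting of the counts is not given in the sources used here. Tm4sf1 reached 170.2 and 173.0 CPM from 27.3 and 41.3 CPM (2.32), and Stra6, the cell surface receptor for retinol-binding protein, 42.0 and 77.2 CPM from 6.50 and 14.3 CPM (2.52). The others were Plekhs1 (2.94), Lman1 (2.50), Pcdh9 (a protocadherin, 2.46), Col8a1 (a short-chain collagen, 2.37), Prickle1 (planar cell polarity, 2.35) and Pappa (a protease that cleaves IGF-binding proteins, 2.32).

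**Figure D2:**
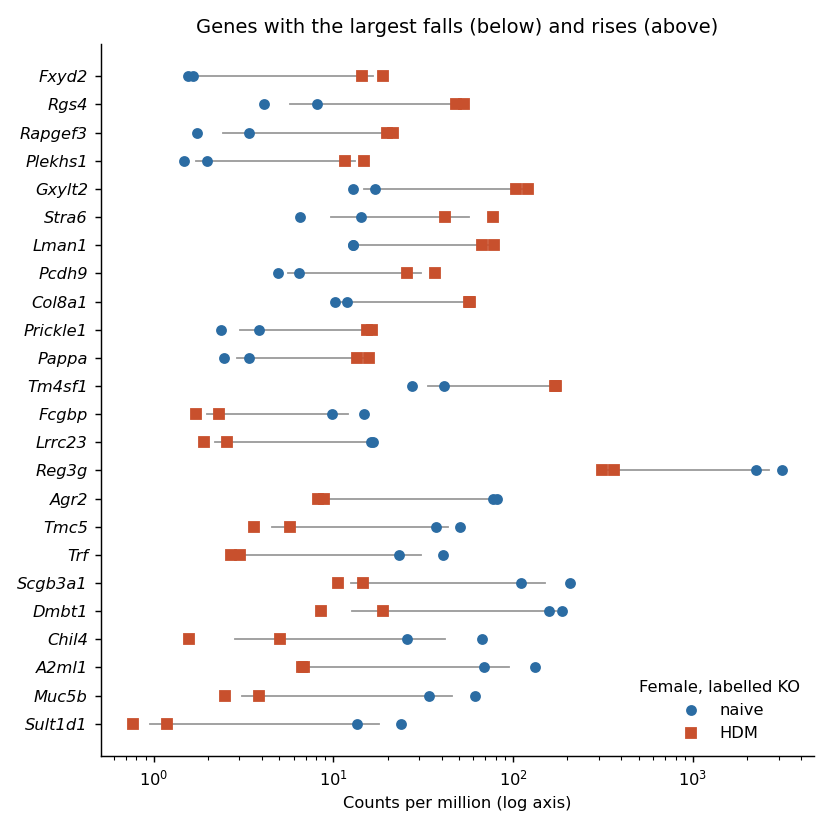
Levels of the 12 genes with the largest rises (upper rows) and the 12 with the largest falls (lower rows) in CPM on a log axis, with naive libraries as blue circles, HDM libraries as orange squares and a grey line between the 2 geometric means. The groups do not overlap for any of the 24 genes, as the choice of these genes required, and Reg3g is the highest of them in every library.

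For a look at what lies upstream of these genes, the 120 bases before the RefSeq start are shown for each of the 24 genes above that has a TATAAA or CCAAT match in those bases, in capitals on either strand. They are given 5′ to 3′ on the gene's strand, from RefSeq's GRCm38.p6 annotation. No promoter window was available for Fxyd2, Lman1, Pappa, Muc5b, Dmbt1, Trf and Tmc5, so these genes were not searched. Of the rising genes, Rgs4 lies at chr1:169747643-169747762 (minus strand), Plekhs1 at chr19:56461517-56461636 (plus), Gxylt2 at chr6:100704614-100704733 (plus), Stra6 at chr9:58128968-58129087 (plus, 1 of 4 windows) and Pcdh9 at chr14:93890680-93890799 (minus, 1 of 2 overlapping windows). Of the falling genes, A2ml1 lies at chr6:128581607-128581726 (minus), Chil4 at chr3:106219480-106219599 (minus), Reg3g at chr6:78468875-78468994 (minus) and Agr2 at chr12:35992805-35992924 (plus).
Rgs4 (rose): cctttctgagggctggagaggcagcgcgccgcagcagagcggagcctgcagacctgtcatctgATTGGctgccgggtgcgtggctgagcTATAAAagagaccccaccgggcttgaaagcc
Plekhs1 (rose): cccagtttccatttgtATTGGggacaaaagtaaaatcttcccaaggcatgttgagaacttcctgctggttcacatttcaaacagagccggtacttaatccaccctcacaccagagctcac
Gxylt2 (rose): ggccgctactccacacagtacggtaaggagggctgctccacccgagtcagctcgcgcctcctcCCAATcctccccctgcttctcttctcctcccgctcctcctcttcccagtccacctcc
Stra6 (rose): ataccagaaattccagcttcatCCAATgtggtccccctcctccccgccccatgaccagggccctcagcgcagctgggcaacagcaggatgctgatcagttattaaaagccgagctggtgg
Pcdh9 (rose): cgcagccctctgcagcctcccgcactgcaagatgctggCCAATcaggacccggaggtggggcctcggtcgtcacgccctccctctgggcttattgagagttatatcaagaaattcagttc
A2ml1 (fell): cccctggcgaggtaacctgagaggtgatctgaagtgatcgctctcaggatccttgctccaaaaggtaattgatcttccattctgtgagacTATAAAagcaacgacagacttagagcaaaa
Chil4 (fell): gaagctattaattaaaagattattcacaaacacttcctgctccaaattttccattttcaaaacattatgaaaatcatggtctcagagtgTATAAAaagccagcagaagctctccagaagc
Reg3g (fell): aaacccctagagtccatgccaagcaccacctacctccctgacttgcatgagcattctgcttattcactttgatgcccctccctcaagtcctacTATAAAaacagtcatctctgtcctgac
Agr2 (fell): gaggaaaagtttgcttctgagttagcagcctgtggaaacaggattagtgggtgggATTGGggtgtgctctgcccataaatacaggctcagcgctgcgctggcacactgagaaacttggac
The CCAAT match (read as ATTGG where it is on the other strand) begins 57 bases before the start in Rgs4 and Gxylt2, 82 in Pcdh9, 98 in Stra6, 104 in Plekhs1 and 65 in Agr2. The TATAAA match begins 30, 31 and 27 bases before the start in A2ml1, Chil4 and Reg3g and 31 bases before it in Rgs4. Matches outside these bases were found for Tm4sf1 and Prickle1 (CCAAT 166 and 245 bases before the start). TATAAA was also found 5 bases after the start in Sult1d1 and, as a further match, 161 bases before it in Reg3g.

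Many secretory products fell. Of 36 tested members of a list of 40, 16 were lower, none was higher and 20 did not pass, with a median log2 fold change of -1.56 against -0.005 over all tested genes, and 35 of the 36 estimates were below 0. In bulk cultures fewer cells of a type and less RNA per cell cannot be told apart, which holds for every list here. Counts of called list members are to be read beside the 4.63% higher and 5.77% lower of all tested genes. Ltf (lactoferrin, an iron-binding protein of secretions) was at 6905 and 5483 CPM in naive and at 1249 and 1740 CPM in HDM libraries (-2.05, SE 0.23, adjusted p = 0.000546). Muc1, a transmembrane mucin, went from 498.4 and 370.3 CPM to 106.8 and 79.8 CPM (-2.22), and Pigr, which carries IgA across the epithelium, from 96.5 and 72.5 CPM to 16.4 and 17.4 CPM (-2.32). Spdef, the transcription factor of goblet cell differentiation, was already low in naive cultures, at 3.28 and 2.57 CPM, and reached 0.403 and 0.394 CPM (-2.86). Muc5ac, the other gel-forming mucin, was at 2.88 and 2.32 CPM and at 0.525 and 0.609 CPM (-2.19, adjusted p = 0.00385). Smaller falls were seen for the collectin Sftpd (-1.52), Scgb3a2 (-1.37) and Msln (-1.14). Epithelial antimicrobial and complement genes gave 5 lower and 1 higher of 23, among them the peptidoglycan receptor Pglyrp1 (231.4 and 205.0 CPM to 63.8 and 47.8 CPM, -1.97), while the defensin Defb1 rose from 1.20 and 1.18 CPM to 3.11 and 3.37 CPM (1.44).

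Enzymes of xenobiotic metabolism fell with them. In the list of aldehyde, alcohol and conjugation enzymes 23 of 53 tested members were lower and none higher, with a median of -0.64. Aldh1a1, a retinaldehyde dehydrogenase, was at 1315 and 1313 CPM in naive and 647.0 and 524.0 CPM in HDM libraries (-1.17, SE 0.12, adjusted p = 0.000317). Carbonyl reductase Cbr2 went from 5677 and 4441 CPM to 1919 and 1599 CPM (-1.52), and Akr1c18, an aldo-keto reductase, from 102.4 and 97.7 CPM to 29.5 and 23.2 CPM (-1.93). Of 25 P450 and flavin monooxygenase genes 7 were lower and 2 higher (28% and 8%, against 5.77% and 4.63% of all tested genes). Cyp2f2, the abundant P450 of club cells, moved from 15440 and 12850 CPM to 7770 and 7145 CPM (-0.92, SE 0.18, adjusted p = 0.00899), and Cyp2s1 from 49.3 and 50.5 CPM to 11.6 and 11.1 CPM (-2.14). The 2 that rose were Cyp26b1, which degrades retinoic acid (14.0 and 16.3 CPM to 42.4 and 45.9 CPM, 1.54), and Cyp3a13 (1.00). NRF2 antioxidant targets gave 2 lower and 1 higher of 24 (8.33% and 4.17%, near the 5.77% and 4.63% of all tested genes). Prdx6 fell by 1.35 and Osgin1 rose by 0.45. Members of the Gstm, Gstp, Ces1, Akr1c, Ugt1a and Cyp2a families are near-identical copies, and reads may have been shared among them.

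Water and ion transport moved in both directions. Of 22 tested genes 3 were lower and 2 higher (13.6% and 9.09%, against 5.77% and 4.63% of all tested genes). The water channel Aqp5 went from 2590 and 2276 CPM to 1257 and 1066 CPM (-1.07) and Aqp4 from 575.2 and 432.4 CPM to 109.0 and 91.8 CPM (-2.33), and Atp1b1 of the sodium pump fell by 1.02. Bicarbonate transporter Slc4a4 rose from 49.0 and 50.2 CPM to 106.7 and 133.7 CPM (1.28), and Ano1, the calcium-activated chloride channel, from 102.9 and 132.9 CPM to 181.8 and 199.1 CPM (0.69).

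Motile cilia genes were lower in nearly every estimate. Of 50 tested members 11 were lower (22%, against 5.77% of all tested genes), none was higher and 39 did not pass, and 49 of 50 estimates were below 0 with a median of -1.71. The number called lower depended on the setting: it was 41 without the filter on low counts, 39 when only these 4 libraries were fitted, 24 with DESeq2, 21 with the replicate block and 2 or 3 with 1 library left out. The called member with the smallest p was Rsph9 (-1.26, SE 0.17, adjusted p = 0.00119). Genes of the multiciliation program were among the others. Deup1, which builds centrioles, was at 5.41 and 5.95 CPM in naive and at 0.403 and 1.07 CPM in HDM libraries (-2.92, SE 0.78, adjusted p = 0.0356). Ccno was lower by 2.71 on the log2 scale and Gmnc by 2.26. The axonemal gene Rsph1 went from 13.8 and 14.1 CPM to 4.28 and 5.48 CPM (-1.51). Foxj1, the master regulator of ciliated cells, was at 76.7 and 90.3 CPM and at 44.8 and 47.0 CPM, which did not pass (-0.86, adjusted p = 0.145). An RFX X box (GTTGCCATG or its reverse), the motif bound by the RFX factors of ciliated cells, was found in the window of 2 called members of the list, and their 120 bases before the start are shown with that motif and CCAAT in capitals. Deup1 lies at chr9:15627847-15627966 and Lrriq1 at chr10:103236323-103236442, both on the minus strand.
Deup1 (fell): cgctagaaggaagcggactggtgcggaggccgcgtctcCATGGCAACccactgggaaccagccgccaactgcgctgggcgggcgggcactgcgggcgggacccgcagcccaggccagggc
Lrriq1 (fell): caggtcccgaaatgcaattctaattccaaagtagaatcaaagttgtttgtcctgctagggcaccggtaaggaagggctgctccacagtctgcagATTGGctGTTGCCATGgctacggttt
The X box begins 82 bases before the start in Deup1, in 1 of its 2 RefSeq windows, and 19 bases before it in Lrriq1, where a CCAAT match begins 26 bases before the start.

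Several markers of rare epithelial cells, all at few counts, were lower with HDM. Foxi1, the ionocyte factor, had 23 and 21 counts in the naive libraries and 0 in both HDM libraries. With a floor of 3 counts in each HDM library, which covers counting error only, it was at least 5.39-fold lower with HDM. Ascl3 had 26 and 15 counts against 1 and 2. The tuft cell gene Gnat3 was at 63 and 44 counts in naive and at 7 and 11 counts in HDM libraries. Of the tested markers 2 of 4 for ionocytes and 2 of 6 for tuft cells passed, all lower with HDM. Dclk1, an abundant tuft marker that other cells also express, did not follow, with 1963 and 1314 counts against 1366 and 1725.

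Most called members of the cytoskeletal, adhesion and matrix lists rose. Of 19 mesenchymal transition genes 6 were higher (31.6%, against 4.63% of all tested genes) and none was lower. The median log2 fold change was 0.65, ranging from 0.07 to 0.75 over 12 other settings. Of the 19 estimates 12 were above and 7 below 0, the lowest at -1.55. The actin crosslinker Flna was at 606.4 and 761.2 CPM in naive and at 1324 and 1480 CPM in HDM libraries (1.04, SE 0.20, adjusted p = 0.00698), and Actn1 at 247.0 and 312.5 CPM and at 571.4 and 583.0 CPM (1.05). Cald1 rose by 1.39, Tpm1 by 0.82 and Cnn2 by 0.68, all regulators of actin filaments, and Cdh2 (N-cadherin) from 1.48 and 1.46 CPM to 4.72 and 2.86 CPM (1.36). In the list of 50 matrix and basement membrane genes 7 were higher and 1 was lower, with a median of 0.32. These are 14% and 2%, against 4.63% and 5.77% of all tested genes. Hspg2 (perlecan) went from 53.4 and 68.4 CPM to 195.7 and 242.1 CPM (1.85, SE 0.22, adjusted p = 0.000651), Col18a1 from 152.3 and 251.3 CPM to 483.5 and 445.9 CPM (1.20) and thrombospondin Thbs1 from 137.3 and 176.9 CPM to 377.8 and 384.9 CPM (1.28). The integrin genes Itgb8 (1.68), Itgav (0.61) and Itgb5 (0.49) rose with them, and Nid2, a basement membrane linker at under 2 CPM, fell by 1.87.

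Markers of stroma and other cell types were read beside these genes, and their part in the result was not tested. The 10 fibroblast markers summed to 110.3 and 95.5 CPM in naive and to 70.1 and 66.4 CPM in HDM libraries, and none of the 9 tested was called. Smooth muscle markers summed to 71.8 and 99.9 CPM and to 210.4 and 167.0 CPM, carried by Acta2 (823 and 1343 counts against 3208 and 2513), while Myh11 and Des had at most 10 counts in any of the 4 libraries, and none of the 6 tested was called. Endothelial markers stayed at 2.14 to 3.44 CPM in sum, with Cdh5 at 0 in 3 libraries. Leukocyte markers summed to 129.6 and 134.1 CPM and to 91.5 and 89.1 CPM, with Cd3e at 0 throughout and Cd68 called lower (-0.97). Of the cartilage markers Sox9, which airway epithelium also expresses, rose from 50.1 and 61.6 CPM to 145.0 and 179.0 CPM (1.54), while Acan had at most 1 count. Thyroid markers were at 0.541 to 1.41 CPM in sum, and none of the 3 tested was called.

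Surface proteases and their inhibitors gave 5 higher and 2 lower of 37 (13.5% and 5.41%, against 4.63% and 5.77% of all tested genes). The membrane-type metalloproteinase Mmp15 went from 372.2 and 440.9 CPM to 820.3 and 810.3 CPM (1.00, SE 0.12, adjusted p = 0.000703), Adamts1 from 17.6 and 20.6 CPM to 57.8 and 74.8 CPM (1.80) and the serpin Serpine2 from 49.9 and 72.8 CPM to 190.1 and 169.7 CPM (1.55). Mmp14 (0.46) and the inhibitor Timp2 (0.51) rose less, and the transmembrane serine protease Tmprss4 fell by 0.93. Immediate early and AP-1 genes gave 6 higher (17.6%) and none lower of 34, with a median of 0.31. Jun was at 98.7 and 123.0 CPM and at 181.8 and 182.1 CPM (0.72, adjusted p = 0.00496, overlapping an antisense transcript), Dusp1 rose by 0.78 and Klf6 by 0.66, and the YAP and serum response genes Ccn1 and Ccn2 by 1.15 and 1.13. In the EGF receptor family Tgfa, a ligand, rose by 0.60 and the feedback inhibitor Errfi1 by 0.81, whereas Erbb2 fell by 0.52 and Spry2 by 0.61.

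**Figure D3:**
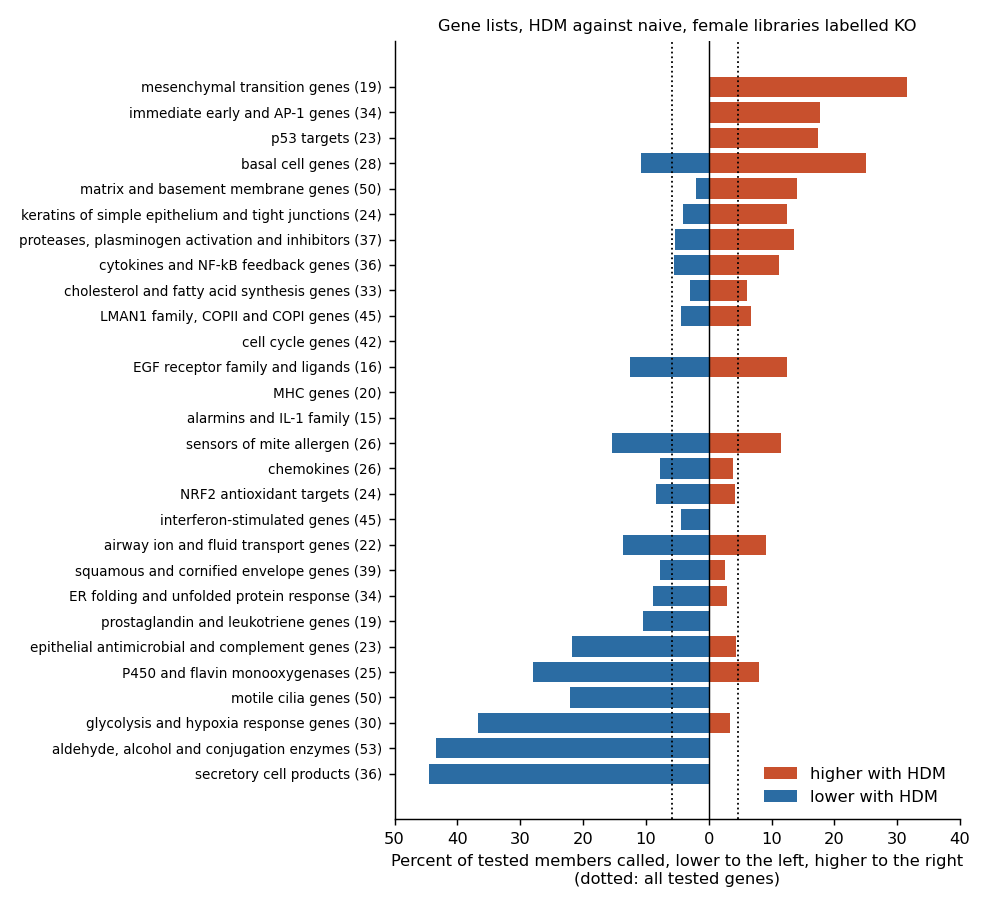
Share of the tested members of each list that passed an adjusted p of 0.05 in the female libraries labelled KO, with members lower with HDM to the left and higher to the right; the number tested is in parentheses and dotted lines mark the shares of all tested genes, 5.77% and 4.63%. Secretory products and conjugation enzymes reach farthest to the left and mesenchymal transition genes farthest to the right, while the lists of alarmins, MHC genes and cell cycle genes have no called member.

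Keratins and basal cell genes showed a mixed picture. Krt8 and Krt18, the keratins of simple epithelium, rose from 1011 and 1312 CPM to 2327 and 2080 CPM (0.92) and from 568.6 and 740.2 CPM to 1468 and 1299 CPM (1.08, SE 0.16, adjusted p = 0.00251), and 3 of the 24 members of that list were higher and 1 was lower. Among 28 basal cell genes 7 were higher and 3 lower: the hemidesmosome and laminin-332 genes Itgb4 (0.50), Lama3 (0.93) and Lamb3 (0.74), together with Cdh3 (1.06), Cav1 (0.79), Dst (0.43) and Egfr (0.35), rose, and Dapl1 (-1.52), Dlk2 (-0.77) and the coagulation initiator F3 (-0.87) fell. The defining basal markers did not pass, with Krt5 at 4152 and 4913 CPM in naive and 5868 and 4784 CPM in HDM libraries (0.23, adjusted p = 0.715) and Trp63 at 233.3 and 211.1 CPM and at 217.0 and 189.9 CPM (-0.13, adjusted p = 0.737). Squamous and cornified envelope genes gave 1 higher (Ecm1, 0.82) and 3 lower of 39, or 2.56% and 7.69% against 4.63% and 5.77% of all tested genes. The 3 were near-identical Sprr2 copies whose reads may have been shared.

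Alarmins, cytokines and chemokines are known products of epithelium exposed to HDM. None of 15 tested alarmin and IL-1 family genes passed. Il33 was at 49.0 and 96.5 CPM in naive and at 86.4 and 57.1 CPM in HDM libraries, so that the groups overlapped (log2 fold change -0.02, SE 0.43, adjusted p = 0.984). Il1b varied between the naive libraries, at 0.114 and 6.04 CPM, as much as between treatments, with 4.40 and 8.09 CPM under HDM (1.03, SE 1.78, adjusted p = 0.772). Tslp and Il25 had at most 0.0855 CPM in any of the 4 libraries and were not tested. Of 36 cytokine and NF-kB feedback genes 4 were higher and 2 lower (11.1% and 5.56%): Csf1, the macrophage growth factor, went from 32.7 and 35.2 CPM to 66.3 and 72.3 CPM (1.03), Tnfrsf1b rose by 0.69, the NF-kB subunits Relb and Nfkb2 by 0.47 and 0.35, and Csf3 fell from 9.29 and 8.21 CPM to 2.87 and 3.19 CPM (-1.53) and Il6ra by 0.57. Among 26 chemokine genes 1 was higher (3.85%) and 2 were lower (7.69%). Of all tested genes 4.63% were higher and 5.77% lower, near both chemokine shares and the cytokine share lower. Cxcl5, a neutrophil attractant, fell from 106.9 and 137.4 CPM to 37.0 and 40.7 CPM (-1.65, SE 0.24, adjusted p = 0.00206), Cxcl17 fell by 1.28 and Cxcl16 rose by 0.47.

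Sensors of mite products gave 3 higher and 4 lower of 26, or 11.5% and 15.4% against 4.63% and 5.77% of all tested genes. Tlr3, the receptor of double-stranded RNA, rose from 24.0 and 26.5 CPM to 58.0 and 63.1 CPM (1.26, SE 0.16, adjusted p = 0.000901), Tlr2 by 0.61 and P2rx7, which senses extracellular ATP, by 1.05. Lbp, which presents endotoxin, fell from 125.9 and 121.6 CPM to 46.2 and 53.4 CPM (-1.31) and its partner Cd14 by 0.47, as did Nod1 (-0.97) and the inflammasome adaptor Pycard (-0.85). Tlr4, the receptor of endotoxin, was at 25.3 and 23.3 CPM and at 22.2 and 22.5 CPM (-0.12, adjusted p = 0.621), and the protease-activated receptor gene F2rl1 at 35.2 and 39.9 CPM and at 52.0 and 51.6 CPM (0.46, adjusted p = 0.405).

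Hardly any interferon-stimulated or MHC gene passed. Of 45 interferon-stimulated genes none was higher and 2 were lower (4.44%), Isg20 (-0.95) and Oas1a (-1.05), with a median of -0.13. The share lower was near the 5.77% of all tested genes, of which 4.63% were higher. Isg15, a ubiquitin-like modifier, was at 5.21 and 6.63 CPM in naive and at 5.97 and 6.41 CPM in HDM libraries, and Bst2 at 21.9 and 24.0 CPM and at 21.8 and 19.5 CPM. None of 20 MHC genes passed, against 10.4% of all tested genes in either direction.

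Glycolysis and hypoxia response genes gave 11 lower (36.7%, against 5.77% of all tested genes) and 1 higher of 30: adrenomedullin (Adm) fell from 13.7 and 13.6 CPM to 3.07 and 2.44 CPM (-2.31, SE 0.22, adjusted p = 0.000256), Aldoc from 53.7 and 44.6 CPM to 11.7 and 15.7 CPM (-1.84) and the prolyl hydroxylase Egln3 from 41.6 and 32.5 CPM to 14.8 and 12.2 CPM (-1.45). In the list of LMAN1 family, COPII and COPI genes, whose products carry cargo between the endoplasmic reticulum and the Golgi, 3 of 45 were higher and 2 lower (6.67% and 4.44%, near the 4.63% and 5.77% of all tested genes). Besides Lman1 these were Ergic1 (0.38) and Ergic2 (0.32), which rose, and the coat genes Sec23b, which fell from 558.1 and 451.4 CPM to 192.8 and 206.2 CPM (-1.34, SE 0.19, adjusted p = 0.00211), and Cope (-0.32). Of 34 genes of folding and the unfolded protein response 3 were lower (8.82%) and 1 higher (2.94%), near the shares of all tested genes. Xbp1 (-0.83), Herpud1 (-0.53) and Atf4 (-0.32) fell and the sensor Eif2ak3 (PERK) rose by 0.49. Of 23 p53 targets 4 rose (17.4%, against 4.63% of all tested genes), Eda2r (0.68), Zmat3 (0.42), Polk (0.40) and Tnfrsf10b (0.36), and none fell. Cholesterol and fatty acid synthesis genes gave 2 higher and 1 lower of 33 (6.06% and 3.03%, near the shares of all tested genes). The number higher was 14 without the filter on low counts and 13 when only these 4 libraries were fitted. Prostaglandin and leukotriene genes gave 2 lower of 19 (10.5%, Hpgds and Ptges). None of 42 cell cycle genes passed, though 40 of 42 estimates were above 0, between -0.03 and 0.68. Without the filter on low counts 8 of them were called higher, and 9 when only these 4 libraries were fitted.

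The HDM response of the female libraries labelled KO was next set beside that of the female WT libraries, in which 6887 genes (43.1%) were called, 3297 higher and 3590 lower. The 2 comparisons share no library. Of the 1664 genes called in the libraries labelled KO, 1410 were called in WT too, which is 84.7% of the former and 20.5% of the latter, and 1394 of the 1410 changed in the same direction. The log2 fold changes of the 2 comparisons, taken over the 15993 genes (points that are not independent), had a Pearson r of 0.643 and a Spearman rho of 0.547. Genes called higher in the libraries labelled KO had a median log2 fold change of 0.66 there and 0.93 in WT, and genes called lower -0.77 and -1.10. The list medians were nearer to 0 than in WT for secretory products (-1.56 and -3.68), conjugation enzymes (-0.64 and -1.88), motile cilia genes (-1.71 and -3.11) and matrix genes (0.32 and 1.16).

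**Figure D4:**
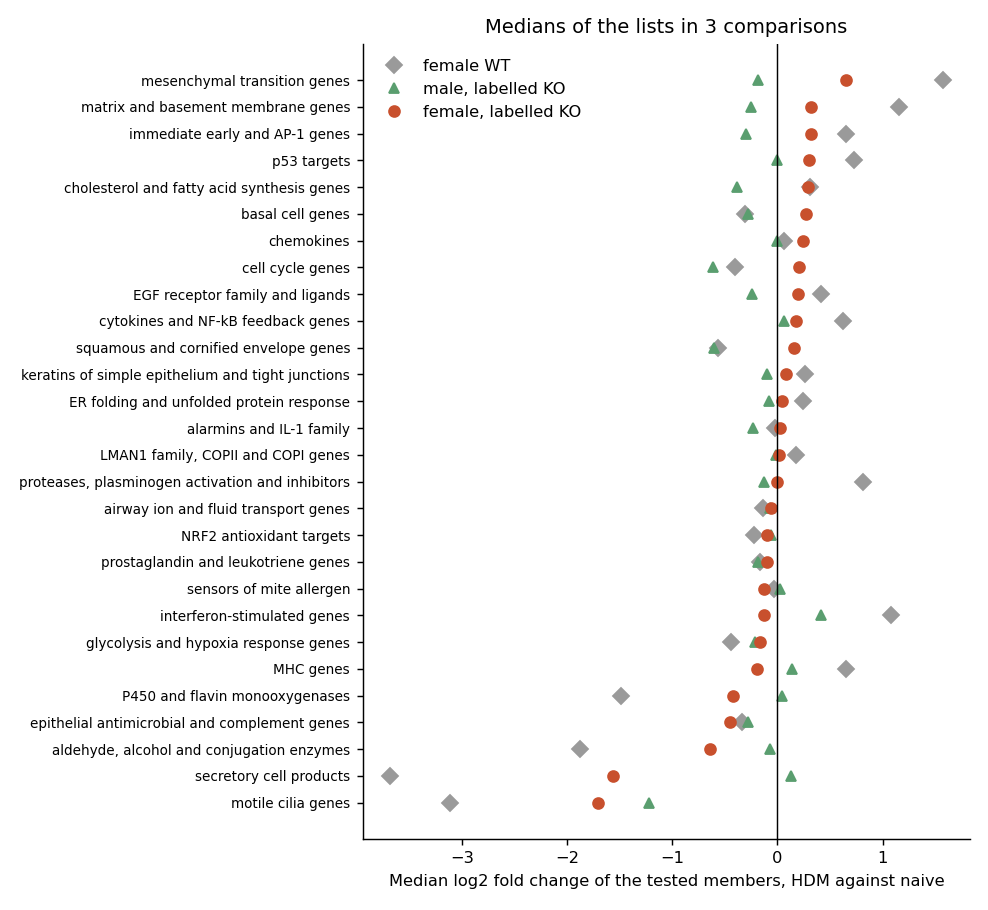
Median log2 fold change, HDM against naive, of the tested members of each list in the female libraries labelled KO (orange circles), the female WT libraries (grey diamonds) and the male libraries labelled KO (green triangles). Secretory products are at -1.56, -3.68 and 0.12 in that order, and interferon-stimulated genes at -0.13, 1.08 and 0.41.

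The difference between the 2 responses was tested directly, as the response in libraries labelled KO minus the response in WT. It passed for 1798 genes (11.2%), of which 985 (6.16%) were above and 813 (5.08%) below 0, or 54.8% above, a split that became 67.0% above when libraries were scaled by their totals alone. Among the 985 genes, 946 were called lower in WT and 257 called lower in the libraries labelled KO, with medians of -1.08 and -0.15. Among the 813, 777 were called higher in WT and 136 in the libraries labelled KO, with medians of 0.94 and 0.09. Leaving out 1 library changed the count to 1070 and 601 (HDM replicates 1 and 2 labelled KO), 959 and 496 (naive replicates 1 and 2 labelled KO), 2381 and 589 (WT HDM replicates 1 and 2) and 517 and 1006 (WT naive replicates 1 and 2).

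Basal and secretory cell genes were among those with the largest positive differences. Aqp3, an aquaglyceroporin of basal cells, was at 950.9 and 988.9 CPM in naive and 890.5 and 645.5 CPM in HDM libraries labelled KO, while in WT it went from 841.1 and 837.1 CPM to 31.2 and 30.9 CPM (difference of responses 4.42, SE 0.25, adjusted p = 7.617e-06). Cyp2a5, whose reads may be shared with a near-identical copy, fell by 0.91 in the libraries labelled KO and by 5.74 in WT (difference 4.83, SE 0.36). Scgb3a2 was at 181.0 and 157.8 CPM and at 83.2 and 47.9 CPM in the libraries labelled KO and at 213.5 and 206.7 CPM and at 3.25 and 3.31 CPM in WT, a difference of 4.63. Differences were 4.55 for Sec14l3, 4.44 for Ces1h and 4.37 for Ces1f. The list counts that follow are to be read beside all tested genes, of which 6.16% differed above and 5.08% below 0. Of the basal cell list 9 of 28 members were above 0 and 1 below: Krt15 (4.12), Ngfr (3.01), Krt5 (2.01) and Trp63 (1.93) were lower with HDM in WT by 4.63, 3.17, 1.78 and 2.06, and changed by -0.52, -0.15, 0.23 and -0.13 in the libraries labelled KO. In the squamous list 7 of 39 were above 0, among them Krt13 (3.32), Krt4 (2.61) and Crnn (4.79). Secretory products gave 16 above and 2 below of 36, conjugation enzymes 24 and 2 of 53 and P450 and flavin monooxygenases 10 and 1 of 25. Motile cilia genes gave 1 above and none below of 50, with a median difference of 1.10, against 1.03 for the conjugation enzymes.

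Interferon-stimulated genes differed the other way. In WT 30 of 45 were called higher, against 3297 of all 15993 tested genes. The difference of responses was below 0 for 19 and above 0 for 1 (Mx1). Of all tested genes 5.08% differed below and 6.16% above 0, which applies to each list count here. Ifit3, an antiviral effector, was at 10.4 and 11.3 CPM in naive and 107.4 and 86.7 CPM in HDM libraries of WT, and at 6.10 and 8.05 CPM and 5.00 and 4.37 CPM in those labelled KO (difference -3.75, SE 0.62, adjusted p = 0.00439). Ifit3b, a near-identical neighbour, differed by -3.79 and the GTPase gene Tgtp1 by -3.06. Isg15 (-1.92), Bst2 (-1.77), Irf7 (-1.55) and Gbp2 (-1.64) belonged to the same 19. Of 20 MHC genes 6 were below 0 and none above, with B2m (-1.26), Tapbp (-0.90), H2-D1 (-0.82) and H2-K1 (-0.77) among them. Matrix genes gave 11 below and 1 above of 50, with Fn1, which rose by 2.64 in WT and changed by 0.51 in the libraries labelled KO, at -2.13. Outside the lists Ckb, a creatine kinase (-3.17), Ddah1 (-3.27) and Igfbp4 (-2.95) had low values as well. Alarmins gave 1 above and 2 below of 15, few genes, with the share above near that of all tested genes. Cxcl5 differed by -1.61, falling in the libraries labelled KO while WT changed by -0.04.

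**Figure D5:**
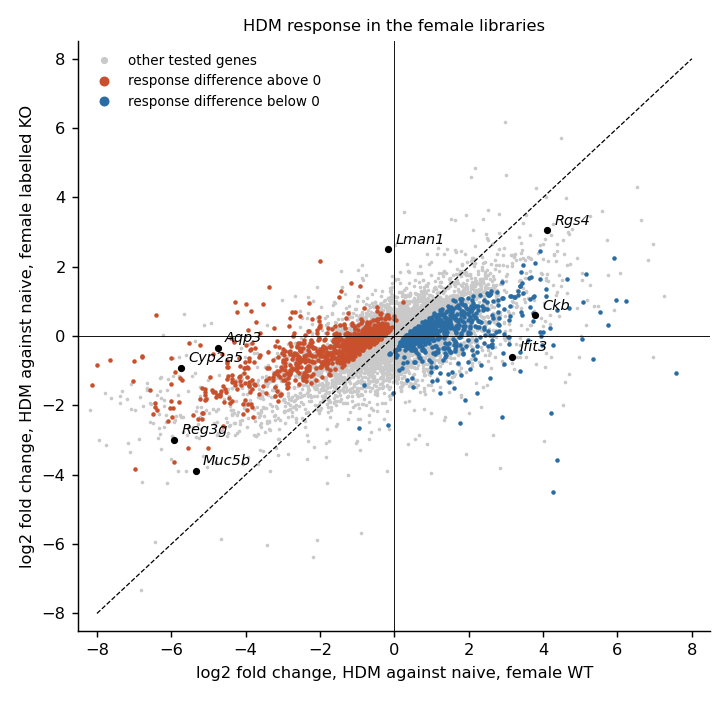
Log2 fold change with HDM in the female libraries labelled KO (vertical) against that in the female WT libraries (horizontal) for 15993 genes; genes whose difference of responses passed an adjusted p of 0.05 are orange (985, above 0) or blue (813, below 0), the dashed line marks equal responses and 8 genes are named. Of the orange genes 946 were called lower in WT and lie to the left, as Aqp3 does at -4.76 and -0.34. Among all 985, 257 were called lower and 23 higher in the libraries labelled KO. Lman1, whose difference is also above 0, lies at -0.17 and 2.50. Of the blue genes 777 were called higher in WT and lie to the right, as Ifit3 does at 3.16 and -0.59.

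In the male libraries labelled KO no gene passed (0% by edgeR, with 857 genes at an unadjusted p under 0.05 and 1 gene by DESeq2). Without the filter on low counts 705 genes passed there, 94 higher and 611 lower. Replicate 2 of the naive libraries of that group had Lman1 at 63.4 CPM, close to its HDM libraries, and without it 19 genes passed. The female minus male difference of responses passed for 569 genes (3.56%), 286 above and 283 below 0. Of the 286, 266 were called higher with HDM in the female libraries, and of the 283, 276 were called lower there. The count was 1112 and 186 without male naive replicate 2 or 1, 136 and 52 without male HDM replicate 1 or 2, and between 76 and 387 without each of the 4 female libraries in turn. Gxylt2 was at 20.8 and 8.03 CPM in naive and 8.31 and 7.26 CPM in HDM male libraries labelled KO, against its rise in the female ones (difference 3.79, SE 0.46, adjusted p = 0.00407). The difference was 3.22 for Rgs4, 3.33 for Pdk4, a kinase that inhibits pyruvate dehydrogenase, 3.22 for Tm4sf1, 3.20 for Crisp1 and 3.06 for Fndc1. Sult1d1, at 25.8 and 32.6 CPM and at 33.9 and 44.1 CPM in the male libraries labelled KO, differed by -4.66 (SE 0.42, adjusted p = 0.00238), and differences below 0 were also found for A2ml1 (-4.47), Scgb3a1 (-4.08), Muc5b (-3.93), Trf (-3.89) and Dmbt1 (-3.73). Secretory products gave 11 of 36 tested members below 0 and conjugation enzymes 11 of 53, against 283 of all 15993 tested genes. Neither list gave a member above 0. Motile cilia genes had medians of -1.71 in the female and -1.22 in the male libraries labelled KO, and 1 of 50 differed.

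Promoter windows of the called genes (250 bases before to 50 after a RefSeq start, 699 windows of 533 genes called higher and 876 windows of 703 genes called lower) were searched for short motifs on both strands, as a description without a test. TGACTCA, the AP-1 site, was in 4.43% of windows of genes called higher and 5.37% of those called lower, against 4.11% for all 14657 windows of tested genes and 5.2% of all 32851 RefSeq windows. GGANTTTCC, an NF-kB site, was in 1.86% and 1.37%, against 1.39% and 1.25%. The X box GTTGCCATG was in 0.286% and 1.71%, against 0.696% and 0.773%. That is 2 windows of genes called higher and 15 of genes called lower. CACGTG, the E box, was in 8.44% and 8.22% against 9.37% and 7.15%, TATAAA in 10% and 9.02% against 7.76% and 13.6%, and CCAAT in 33.9% and 40.4% against 37.1% and 37.4%. Windows of 1 gene can overlap, and a window counts once however many matches it holds.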

How the data were processed

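Per the submitters' processing notes, reads were trimmed with Trimmomatic 0.36, aligned to GRCm38 with STAR 2.5.2b and counted per gene with featureCounts of Subread 1.5.2, and DESeq2 is named as well. The annotation release and the strand setting are not given in the sources used here. The authors deposited raw counts per gene, not normalised, for all 16 libraries. Of 49315 gene IDs, 49056 matched GENCODE M21 for symbols, and the others held 0.0106% of counts.

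From these counts, genes were kept with filterByExpr (15993 genes), scaled with TMM and tested with edgeR 4.0.16 in R 4.3.3 (quasi-likelihood test, 8 group means over 16 libraries, 8 residual degrees of freedom, common biological coefficient of variation 0.1416, Benjamini-Hochberg adjusted p under 0.05). A difference of responses is a contrast of 2 such contrasts in the same fit. Differences at HDM minus naive are positive when HDM is higher. Alternatives were DESeq2 1.42.0, other scalings and filters, only the compared libraries, a replicate block, counts thinned to equal depth and each library left out. Leaving out female WT or male libraries and the crossed block were chosen after seeing the data. The script was tested on simulated data. Replicates of a group differed by more than counting noise (chi-square per degree of freedom 5.28 to 54.3), so none was merged.

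The comparison and the gene lists were chosen with earlier results of these data known. Genes are named by rule: Lman1, Mcfd2 and sex-linked genes, the 12 protein-coding called genes with the largest rise and fall whose 4 libraries average 2 or more in log2 CPM and whose groups do not overlap, the 6 in each direction for each difference of responses, the 3 members of each list with the smallest p, and a few known genes. Other list members were named after their values were seen. A gene at 0 was bounded by a floor of 3 counts per library, which covers counting error only. Promoter windows are RefSeq's for GRCm38.p6. Depth ranged from 21860698 to 43442188 counts.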

Additional observations from a re-analysis of the deposited data

Results flagged for a closer look

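The HDM response differed between the female libraries labelled KO and the female WT libraries for 1798 genes, by an edgeR contrast of the 2 responses. Lman1 itself was among them, at 2.67. Of the genes named by rule, the response in the libraries labelled KO minus that in WT was 4.83 for Cyp2a5, 4.63 for Scgb3a2, 4.55 for Sec14l3, 4.44 for Ces1h, 4.42 for Aqp3 and 4.37 for Ces1f on the log2 scale. In the other direction it was -3.79 for Ifit3b, -3.75 for Ifit3, -3.27 for Ddah1, -3.17 for Ckb, -3.06 for Tgtp1 and -2.95 for Igfbp4.

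Between the female and the male libraries labelled KO the response differed for 569 genes. The female minus male difference was 3.79 for Gxylt2, 3.33 for Pdk4, 3.22 for Rgs4, 3.22 for Tm4sf1, 3.20 for Crisp1 and 3.06 for Fndc1. It was -4.66 for Sult1d1, -4.47 for A2ml1, -4.08 for Scgb3a1, -3.93 for Muc5b, -3.89 for Trf and -3.73 for Dmbt1. Lman1 differed between HDM and naive in the female libraries labelled KO and between the 2 naive male libraries labelled KO, and its part in these differences was not tested.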

How the results depend on the processing

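The number of genes called in the female libraries labelled KO was 2717 without the filter on low counts, 2804 when only these 4 libraries entered the fit, 582 with a 2-fold minimum and 373 to 907 with 1 library left out. It stayed within 1.5 times 1664 under DESeq2, other scalings, a minimum of 10 counts, thinned counts and the replicate block (2150), and none of the 1664 genes changed sign under any of these. The number whose response differed from female WT was 3029 without the filter and 496 to 2381 with 1 library left out. For the difference from the male libraries labelled KO it was 1977 without the filter, 1192 with DESeq2, 1062 with the replicate block and 52 to 1112 with 1 library left out. Counts of called list members moved with these: with all libraries kept, members higher ranged from 1 to 14 for squamous genes, 7 to 20 for matrix genes, 2 to 14 for cholesterol genes and 0 to 9 for cell cycle genes, and members lower from 9 to 41 for motile cilia genes and 16 to 28 for secretory products. The call of Lman1 was lost in 3 of the 4 fits that left out a library, while its log2 fold change ranged from 2.38 to 2.60 over the 4. Il33, not called, changed sign from -0.02 to 0.027 with the replicate block and ranged from -0.43 to 0.55 with 1 library left out, above 0 without HDM replicate 2 (0.25) or naive replicate 2 (0.55). Of 134 genes named by rule, leaving out a library ended 28 to 52 calls. The cause of these shifts was not tested, beyond the fewer libraries in the fits.

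The labels do not say what a replicate number stands for, and the replicates were treated as unpaired. Deviations of same-numbered libraries correlated at -0.05 in the female libraries labelled KO, 0.29 in female WT and -0.14 in the male libraries labelled KO. The replicate block gave 2441 genes for the difference from female WT, and with the male pairing crossed it gave 836 genes for the difference from the male libraries, a fit chosen after seeing the data. Depth limits genes at few counts, such as the rare cell markers, and 1578 genes were called after thinning all libraries to equal depth.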
